A study of Rattus norvegicus with 18 samples.

Results

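The genes of oxidative phosphorylation were followed in the hippocampus of male adult Wistar rats during the development of epilepsy. They were taken by symbol: each gene whose annotated symbol begins with Nduf, Uqcr, Atp5 or Sdh, or with Cox and a digit from 4 to 8, was measured by its brightest probe. This gave 75 genes of the 12332 named genes with a tested probe. Of these, 64 were subunits of the respiratory complexes or of ATP synthase, and 11 were assembly factors and related genes that carry the same prefixes. All 75 were tested and none of them was lost to a filter. A further 6 probes that named such a gene together with another gene were left out.

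Rats of the 3 pilocarpine groups were given scopolamine methylnitrate, which limits the peripheral action of cholinergic drugs, and then pilocarpine, a muscarinic agonist. Status epilepticus (SE) followed and was later stopped with diazepam. Hippocampi were taken 3 days after SE (D3, 5 arrays), 7 days after SE (D7, 5 arrays) or soon after the first spontaneous seizure (Chronic, 5 arrays). The control animals received saline only, so they lacked pilocarpine, scopolamine, diazepam and SE alike. One control array belongs to each time, and these 3 form the group Control. Each array carries the number of its own hippocampus, but the labels tie no 2 arrays to each other, and the p-values measure the spread between these arrays. The array is a 1-colour CodeLink design, and levels are given as log2 of the normalised intensity, on which 1 unit is a 2-fold difference.

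Oxidative phosphorylation takes place in the inner mitochondrial membrane. Complex I (NADH dehydrogenase, the Nduf genes) and complex II (succinate dehydrogenase, the Sdh genes, also an enzyme of the citric acid cycle) pass electrons to ubiquinone, complex III (the Uqcr genes) passes them to cytochrome c, and complex IV (cytochrome c oxidase, the Cox genes) passes them to oxygen. ATP synthase (the Atp5 genes) uses the proton gradient so made. Neurons of the hippocampus depend on this pathway for ion pumping and synaptic transmission. Some subunits are encoded in the mitochondrial genome and were not among these genes.

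The 33832 tested features were not on an equal footing across arrays, and this touches every level below. The authors' scale divides each array by 1 constant. On that scale the 75th percentile of the gene probes lay at 2.09 to 2.13 (log2) on the 3 Control arrays, at 2.01 to 2.09 in D3, 1.92 to 2.06 in D7 and 1.91 to 2.07 in Chronic, so that Control lay above every pilocarpine array. The share of spots flagged as good ranged from 66.0% to 76.0% over all arrays. On the authors' scale the median log2 fold change over all features was -0.12, -0.06 and -0.08 for D3, D7 and Chronic, and quantile normalisation, which gives every array the same distribution, brought it to -0.06, -0.05 and -0.05. Values below are on the authors' scale unless quantile normalisation is named.

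On the authors' scale the 75 genes lay slightly lower after pilocarpine. Their median log2 fold changes against Control were -0.25, -0.28 and -0.24 for D3, D7 and Chronic, which is 16.0%, 17.8% and 15.4% lower. At an adjusted p under 0.05 (limma, Benjamini-Hochberg over all features), 20 of 75 were lower at D3, where 14.3% of all features were lower. At D7 27 were lower against 11.9% of all features, and in Chronic 18 were lower against 9.83%. One gene, Cox6b2, was higher at each time, where 7.91%, 6.2% and 4.86% of all features were higher. After quantile normalisation the medians of the 75 genes were -0.01, -0.06 and -0.00, so the shared direction was not seen on that scale. There 1, 0 and 1 of the 75 genes were lower, against 8.62%, 4.58% and 3.71% of all features, and 1 was higher at each time, against 8.53%, 5.55% and 4.33%. The single lower gene was Ndufaf6 at D3 and in Chronic, and the single higher gene was again Cox6b2.

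The mean over the 75 genes separated the arrays on the authors' scale. As the mean log2 difference from the Control mean, it ranged from -0.28 to -0.17 in D3, from -0.32 to -0.17 in D7 and from -0.31 to -0.13 in Chronic, while the 3 Control arrays ranged from -0.08 to 0.04. No pilocarpine array overlapped Control, as was also true of the 75th percentile above. The 3 comparisons share the same Control arrays and are not independent of each other. In bulk tissue, fewer cells of a type and less RNA per cell cannot be told apart.

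The number of lower genes rested on few arrays. Without Control replicate 26 it was 8, 7 and 4 for D3, D7 and Chronic, and without Control replicate 36 it was 8, 5 and 3. Leaving out D3 replicate 14 or 15 left 13 or 12 lower genes at D3, and leaving out Chronic replicate 41 or 42 left 10 or 9 in Chronic. Against the 1 Control array of the same time, 0, 1 and 0 genes were lower, with medians of -0.31, -0.32 and -0.17.

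**Figure D1:**
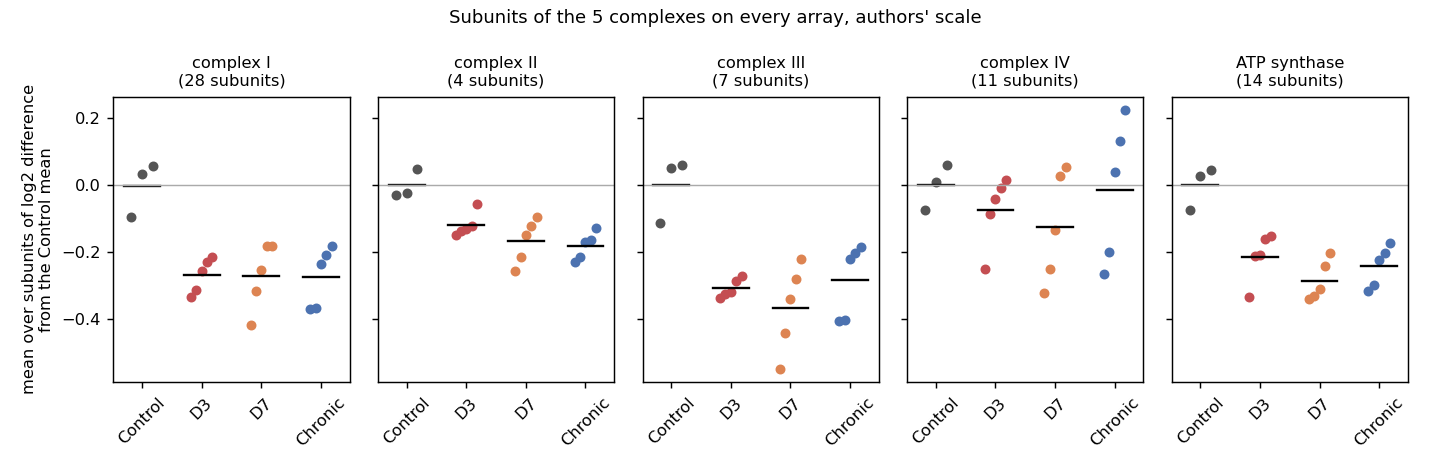
Mean over the subunits of each complex of the log2 difference from the Control mean (vertical axis) on each of the 18 arrays (points, by group on the horizontal axis), authors' scale, with black bars at the group means. For complexes I, II and III and ATP synthase all 15 pilocarpine arrays lie below the 3 Control arrays, whereas complex IV overlaps Control at each time.

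The probes of these genes were bright, and bright features as a whole lay lower. Of the 75 genes, 45 had a mean log2 value of at least 4, as had 2028 of the 33832 features. Among those 2028 features 41.2%, 34.4% and 30.9% were lower for D3, D7 and Chronic, with median log2 fold changes of -0.29, -0.29 and -0.26. Of the 45 bright genes of the pathway, 15 (33.3%), 21 (46.7%) and 14 (31.1%) were lower, with medians of -0.27, -0.31 and -0.25. The share of the pathway thus lay below that of the bright features at D3, above it at D7 and close to it in Chronic. The 2 sets were not equally bright: 19 of the 45 genes had a mean log2 value of at least 5, as had 565 of the 2028 features. Whether brightness has a part in the result was not tested.

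**Figure D2:**
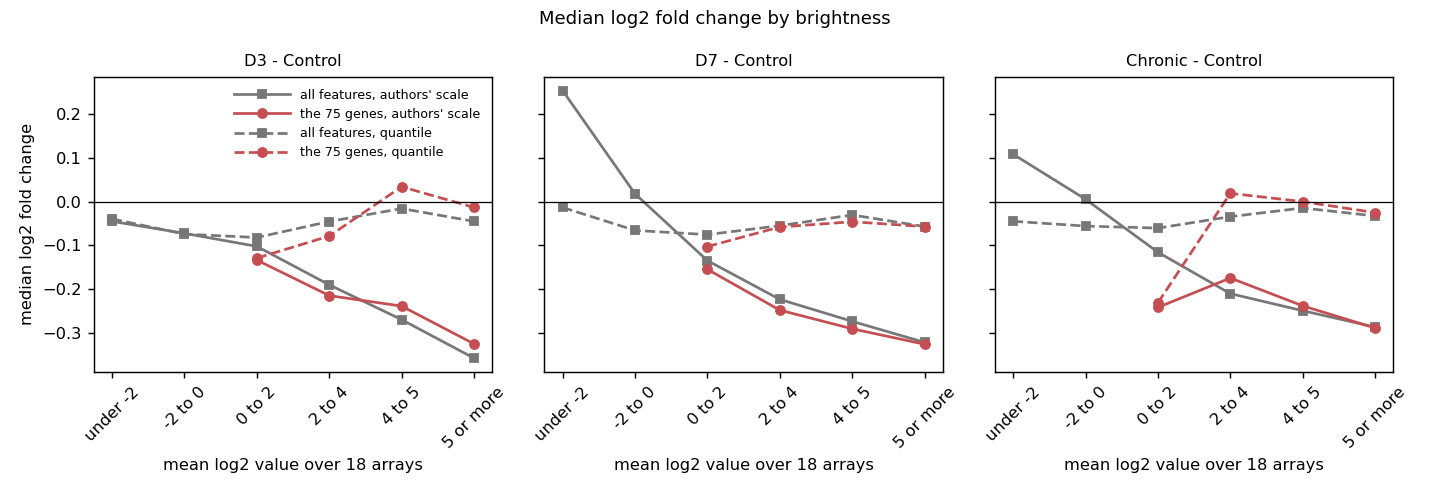
Median log2 fold change (vertical axis) of all tested features (grey squares) and of the 75 genes (red circles) in bands of mean log2 value over the arrays (horizontal axis), at each time against Control, on the authors' scale (solid lines) and after quantile normalisation (dashed lines). The bands under 0 hold 5 of the 75 genes and show no red point; on the authors' scale the line of all features falls from band to band at each time, and that of the 75 genes does so at D3 (from -0.13 to -0.32) and D7 (from -0.15 to -0.33) but not in Chronic, where it runs through -0.24, -0.17, -0.24 and -0.29.

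The counts by complex and of assembly factors below stand beside 14.3%, 11.9% and 9.83% of all features that were lower for D3, D7 and Chronic. Among the bright features these shares were 41.2%, 34.4% and 30.9%. Complex I had 28 measured subunits, of which 9, 10 and 9 were lower for D3, D7 and Chronic, with none higher. Their medians were -0.31, -0.30 and -0.26 on the authors' scale and -0.07, -0.08 and -0.05 after quantile normalisation, where none passed. Ndufa8, an accessory subunit, had the lowest mean change of the complex. Its log2 values were 5.39, 5.42, 5.47, 5.56 and 5.57 in D3, 5.37, 5.47, 5.58, 5.60 and 5.74 in D7, 5.12, 5.49, 5.58, 5.61 and 5.64 in Chronic, and 5.95, 5.96 and 6.07 in Control. Every pilocarpine array lay below every Control array. The log2 fold changes were -0.51 ± 0.11 (SE; adjusted p = 0.00377), -0.44 ± 0.11 (0.0138) and -0.51 ± 0.11 (0.00783). After quantile normalisation they were -0.21, -0.18 and -0.25, with adjusted p of 0.13, 0.231 and 0.108.

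Other accessory subunits of complex I were lower as well. Ndufb8 was lower, at -0.45, -0.40 and -0.33, each ± 0.09 (adjusted p = 0.00245 at D3), and Ndufa12 was lower too, at -0.38, -0.42 and -0.33, each ± 0.10. After quantile normalisation Ndufb8 stood at -0.14, -0.12 and -0.07 and Ndufa12 at -0.12, -0.18 and -0.08. Ndufs7, a core subunit that carries an iron-sulphur cluster close to the ubiquinone site, was lower, at -0.38, -0.38 and -0.51, each ± 0.10 (adjusted p = 0.00462 in Chronic), with -0.08, -0.12 and -0.25 after quantile normalisation. The genes above were named for a low mean change or a small p-value. Ndufv1 and Ndufs1, core subunits at the NADH end, were named from a preset list, so the numbers of calls cannot be compared. Ndufv2, also at that end, was not on the list, and its log2 values ran from 2.91 to 3.19 in D3 and from 2.50 to 3.16 in D7. They ran from 2.87 to 3.54 in Chronic and from 3.26 to 3.44 in Control. Ndufv1, which binds NADH and FMN, was lower at D3 only as far as the threshold goes (-0.32 ± 0.10, adjusted p = 0.0338), with -0.22 and -0.26 at the later times (0.161 and 0.0985). Ndufs1, the largest iron-sulphur subunit, stood at -0.31 ± 0.11 at D3 (adjusted p = 0.0533) and -0.21 at both later times. Ndufv3 stood at 0.06, 0.11 and -0.01, each ± 0.12, and passed at no time.

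Complex II had 4 measured subunits. Sdha, the flavoprotein that oxidises succinate, was measured only by control probes of the array, each averaged over 4 spots. Its brightest probe was lower, at -0.28 ± 0.08 (adjusted p = 0.022), -0.25 ± 0.08 (0.0451) and -0.29 ± 0.08 (0.026), but its 3 other probes, at -0.07, -0.11 and -0.10 at D3, passed at no time. After quantile normalisation the brightest probe stood at -0.12, -0.06 and -0.10. The log2 difference between 3 prime and 5 prime probes of Sdha, a sign of RNA integrity, ranged from 0.53 to 1.01 in Control and from 0.52 to 0.99 in the pilocarpine arrays. Its mean over the 6 genes with such probes ranged from 0.38 to 0.65 in Control and from -0.09 to 0.59 in the pilocarpine arrays. The lowest mean was that of D3 replicate 14, where Hk1 stood at -3.65, against -0.53 to 0.04 on the other D3 arrays. In Chronic replicate 45 Hk1 stood at -1.12. Sdhb, the iron-sulphur subunit, stood at -0.17, -0.23 and -0.31, each ± 0.11, without a pass. Sdhc, a membrane anchor, had the highest mean change of the complex, with 0.01, -0.09 and -0.01, each ± 0.09. The assembly factor Sdhaf3 was lower at D7 (-0.51 ± 0.17, adjusted p = 0.0412) and stood at -0.42 and -0.12 at D3 and in Chronic, and after quantile normalisation it stood at -0.33 at D7 (0.206).

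Complex III had 7 measured subunits with the Uqcr prefix, with 3, 4 and 2 lower and medians of -0.33, -0.38 and -0.26 (-0.09, -0.11 and -0.01 after quantile normalisation). Uqcr11, a small accessory subunit, had log2 values of 4.96, 5.14, 5.38, 5.41 and 5.47 in D3, 5.15, 5.25, 5.26, 5.50 and 5.50 in D7, 5.28, 5.36, 5.40, 5.41 and 5.53 in Chronic, and 5.77, 5.77 and 5.81 in Control. The groups did not overlap with Control. It was lower, at -0.51 ± 0.12 (adjusted p = 0.00451), -0.45 ± 0.12 (0.0142) and -0.39 ± 0.12 (0.0339), and stood at -0.21, -0.17 and -0.13 after quantile normalisation. The core protein Uqcrc1 was lower, with -0.40 ± 0.11 at D3 and -0.38 ± 0.11 at D7 (adjusted p = 0.0152 and 0.0246) and stood at -0.26 in Chronic, with -0.09, -0.11 and -0.01 after quantile normalisation. Uqcrfs1, the Rieske iron-sulphur protein, stood at -0.02, -0.21 and -0.14, each ± 0.12, and passed at no time.

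ATP synthase had 14 measured subunits, of which 3, 6 and 3 were lower, with medians of -0.23, -0.29 and -0.23 (0.05, -0.04 and 0.01 after quantile normalisation). The alpha and beta subunits passed at no time: Atp5f1b, the beta subunit, stood at -0.27, -0.26 and -0.29, each ± 0.11, and Atp5f1a, the alpha subunit, at -0.17, -0.21 and -0.47, each ± 0.18. A second, dimmer probe of Atp5f1b stood at -0.08, -0.19 and -0.20. Atp5mc3, 1 of the genes for the proton-carrying c ring, was lower at D7 (-0.38 ± 0.13, adjusted p = 0.0486) and in Chronic (-0.40 ± 0.13, 0.0459) and had the lowest mean change of the complex. After quantile normalisation it stood at -0.05, -0.14 and -0.13. Atp5po, which links the peripheral stalk to the catalytic head, had the highest, at -0.07, -0.14 and 0.06, each ± 0.15.

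**Figure D3:**
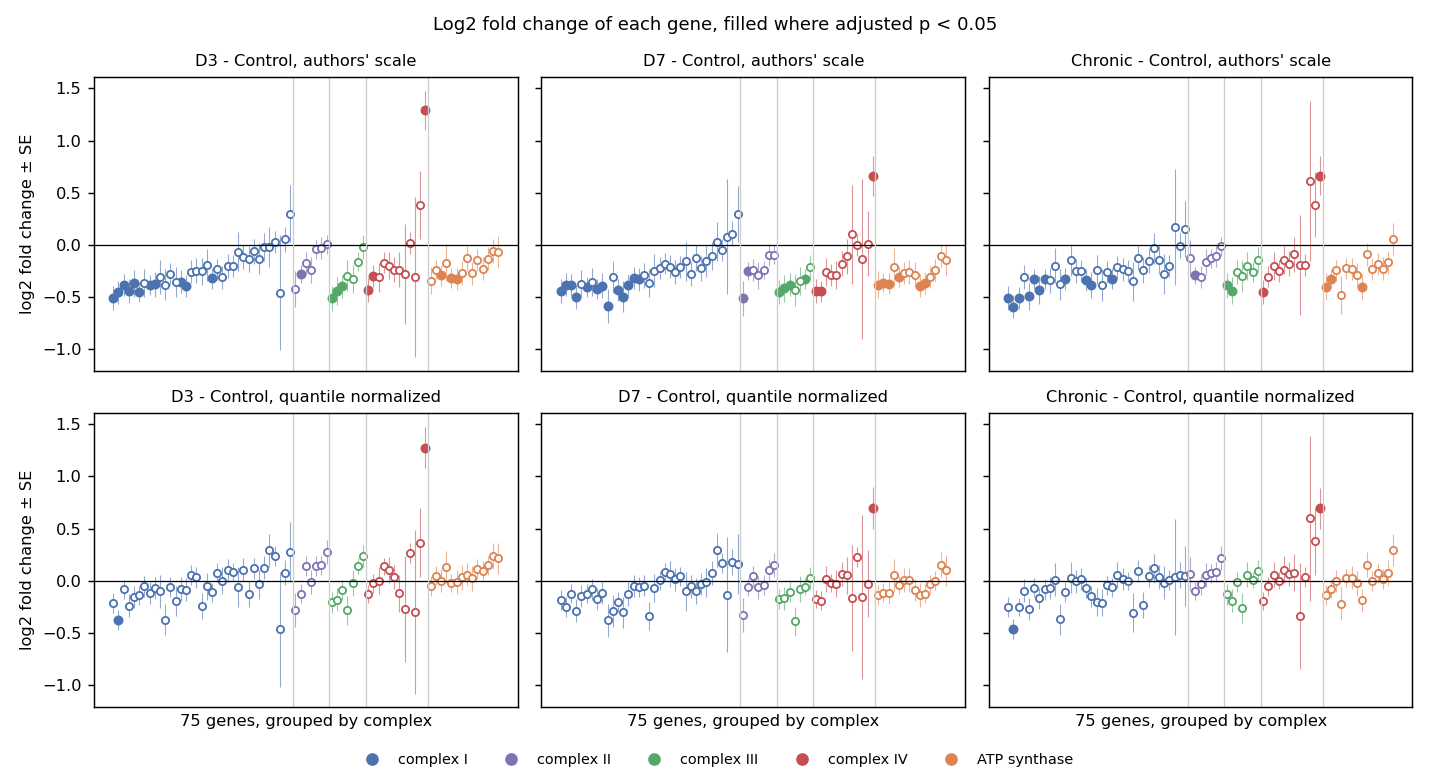
Log2 fold change against Control ± SE (vertical axis) of each of the 75 genes (horizontal axis, ordered within each complex by the mean of the 3 values) at the 3 times, on the authors' scale (top) and after quantile normalisation (bottom), filled where the adjusted p is under 0.05. Most points of the top row lie below 0 and those of the bottom row lie round 0, with Cox6b2 the single filled point above 0 in all 6 panels, at 1.29 in D3 on the authors' scale.

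Complex IV held the gene with the largest fold change, which was in the other direction. Of its 11 measured subunits 2, 2 and 1 were lower, and Cox6b2 was higher at each time. Cox6b2 encodes a version of subunit VIb best known from testis, and its widespread counterpart Cox6b1 was not among the genes measured here. Its log2 values were 1.44, 1.53, 1.63, 1.73 and 1.80 in D3, 0.65, 0.65, 0.87, 1.05 and 1.76 in D7, 0.88, 0.93, 0.95, 1.09 and 1.16 in Chronic, and 0.18, 0.22 and 0.61 in Control. All 15 pilocarpine arrays lay above the 3 Control arrays, by the narrowest margin in D7, where replicate 33 reached the D3 range. The log2 fold change at D3 was 1.29 ± 0.19 (2.44-fold, adjusted p = 0.000151), and it was 0.66 ± 0.19 (0.023) and 0.67 ± 0.19 (0.025) for D7 and Chronic. It was the only 1 of the 75 genes to pass with at least 2-fold, and only at D3, where 3.42% of all features were higher by that much.

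The rise of Cox6b2 did not depend on the scale. After quantile normalisation it was 1.27, 0.69 and 0.69, with adjusted p of 0.000296, 0.0336 and 0.0389. At D3 it held with each array left out (1.21 to 1.43) and against the day 3 Control array alone (1.45, adjusted p = 0.00888). At D7 the call was lost without Control replicate 26 or 36, and in Chronic without either of these or Chronic replicate 41, with highest adjusted p of 0.103 and 0.115. The gene was read by 1 probe, designed on an expressed sequence tag, and lies between Garin5b and Kmt5c in the rat annotation (RefSeq, GRCr8), with no overlap. The sequence of the probe was not at hand, so whether it reads Cox6b2 alone was not tested.

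Ndufaf6, an assembly factor of complex I, was the gene that was lower on both scales, at D3 and in Chronic. Its log2 values were 1.81, 1.96, 2.00, 2.01 and 2.02 in D3, 1.88, 1.98, 1.98, 2.12 and 2.18 in D7, 1.58, 1.66, 1.90, 1.95 and 2.00 in Chronic, and 2.29, 2.43 and 2.51 in Control. No pilocarpine array reached the lowest Control array. It was lower at D3, with -0.45 ± 0.11 (adjusted p = 0.00657), and likewise with -0.38 ± 0.11 (0.0231) and -0.59 ± 0.11 (0.00252) for D7 and Chronic. After quantile normalisation it was lower, with -0.38 at D3 and -0.46 in Chronic (0.00922 and 0.00584), and stood at -0.25 at D7 (0.0936). At D3 and in Chronic the call held with each array left out, and at D7 it was lost without Control replicate 26 or 36. Against the Control array of the same time it stood at -0.55, -0.40 and -0.47 and did not pass (adjusted p from 0.0717 to 0.248).

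**Figure D4:**
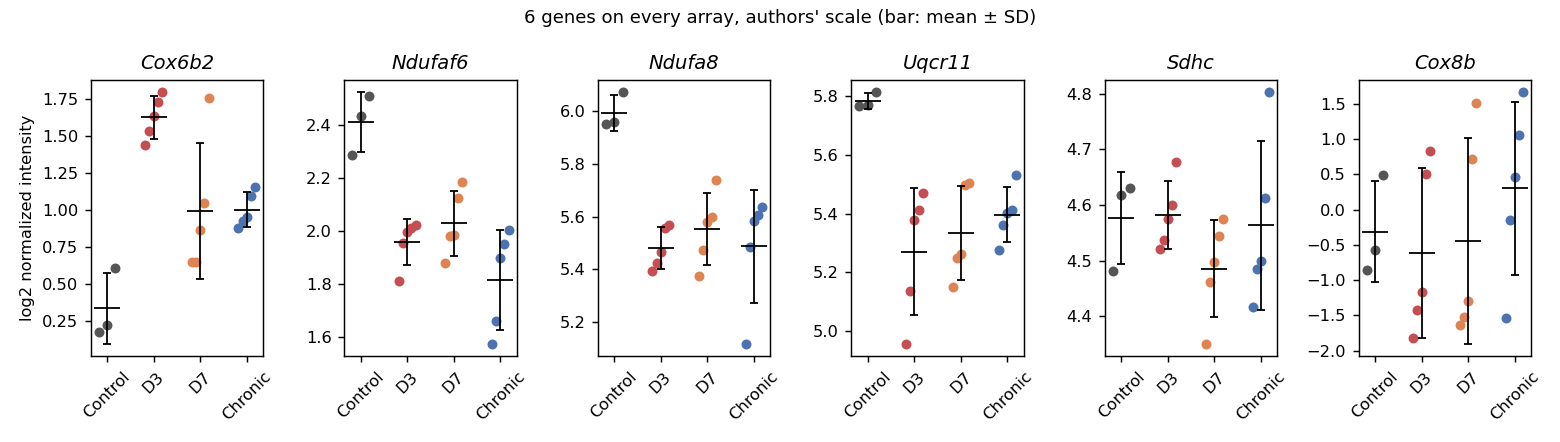
Log2 normalised intensity (vertical axis, authors' scale) of 6 genes on each of the 18 arrays (points, by group on the horizontal axis), with the mean ± SD of each group. Cox6b2 lies above Control and Ndufaf6, Ndufa8 and Uqcr11 below it on all 15 pilocarpine arrays, while Sdhc and Cox8b overlap Control.

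Of the other assembly factors of complex I, Ndufaf3, Ndufaf5, Ndufaf7 and Ndufaf8 lay below 0 at each time on the authors' scale and Ndufaf4 above 0. Ndufaf5, which hydroxylates the subunit Ndufs7, was lower at D3 (-0.44 ± 0.11, adjusted p = 0.00977) and D7 (-0.50 ± 0.11, 0.00702) and stood at -0.31 in Chronic, with -0.24, -0.29 and -0.10 after quantile normalisation and no pass there. Ndufaf8 was lower at D7 (-0.43 ± 0.10, adjusted p = 0.00985) and in Chronic (-0.33 ± 0.10, 0.0415) and stood at -0.28 at D3. After quantile normalisation it stood at -0.06, -0.20 and -0.11 and did not pass. Ndufaf3 and Ndufaf7 passed at no time. Ndufaf4 was dim, with a mean log2 value of -1.05. It had the highest mean change of all genes with the Nduf prefix, at 0.30, 0.30 and 0.15, each ± 0.27, and passed at no time. Over all 11 assembly factors and related genes the medians were -0.13, -0.24 and -0.16, and 2, 4 and 2 were lower.

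Among the other subunits of complex IV, the widespread isoform Cox6a1 was lower at all 3 times on the authors' scale (-0.43, -0.44 and -0.45, each ± 0.11, adjusted p from 0.0105 to 0.0142) and stood at -0.13, -0.17 and -0.19 after quantile normalisation. Cox7b was lower at D3 (-0.30) and D7 (-0.44 ± 0.10, adjusted p = 0.00761) and stood at -0.30 in Chronic (0.0559), with -0.03, -0.19 and -0.05 after quantile normalisation. The regulatory subunits Cox4i1 (-0.31, -0.26 and -0.20) and Cox5a (-0.17, -0.29 and -0.25) passed at no time, and Cox4i1 had 4 usable arrays in D3.

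The isoforms of other tissues gave no call apart from Cox6b2. Cox6a2, the heart and muscle counterpart of Cox6a1, stood at 0.38, 0.01 and 0.39, each about ± 0.3. Cox8b, the muscle form of subunit VIII, was dim and uneven: its log2 values ran from -1.82 to 0.83 in D3, from -1.63 to 1.52 in D7, from -1.53 to 1.66 in Chronic and from -0.86 to 0.49 in Control. Each group covered the Control range, and the log2 fold changes of -0.31, -0.13 and 0.61 carried an SE of 0.77. Cox8c, known from testis, was flagged as low on all 18 arrays and gave no usable level. Ndufa4l2, which rises in cells short of oxygen, stood at -0.07, -0.15 and -0.35, each ± 0.19. Muscle markers, which would mark tissue carried over with the dissection, had medians of -0.38, -0.28 and -0.16 over 5 genes. Of these 1, 0 and 1 were lower and none higher, where 14.3%, 11.9% and 9.83% of all features were lower.

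Single arrays decided many of the calls of named genes on the authors' scale. The calls of Ndufa8, Ndufa12, Ndufb8, Ndufs7 and Uqcr11 at D3, of Ndufa12 and Cox7b at D7 and of Ndufa8 and Ndufs7 in Chronic held with each array left out. Leaving out Control replicate 26 or 36 ended the calls of Cox6a1 at all 3 times, Sdha at D3 and in Chronic, Uqcrc1 at D3 and D7 and Ndufs7 at D7. Leaving out Control replicate 36 ended those of Ndufa8 and Ndufb8 at D7 and of Ndufaf5 at D3 and D7, and leaving out Control replicate 26 ended that of Uqcr11 at D7. In Chronic, Ndufb8 lost its call without Chronic replicate 44 or Control replicate 36 or 47, and Ndufa12 without any of these or Control replicate 26. Other calls were lost in more of the fits, that of Sdha at D7 in 15 of 18 fits, those of Atp5mc3 in 14 at D7 and 13 in Chronic, and that of Cox7b at D3 in 11. Sdhaf3 at D7 and Uqcr11 in Chronic lost theirs in 6 and Ndufv1 at D3 in 5. The highest adjusted p in these fits was 0.238, for Sdhaf3.

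Few calls separated the pilocarpine groups from each other. Between D3 and D7 none of the 75 genes passed, where 0.884% of all features did, and between D7 and Chronic none passed, where 0.171% did. Between D3 and Chronic 1 passed, where 2.73% of all features did. This was Cox6b2, lower in Chronic than at D3, with -0.62 ± 0.17 (adjusted p = 0.0473). The same difference stood at -0.58 after quantile normalisation (0.0792), and its call was lost in 14 of the 18 fits that left out an array. From D3 to D7 Cox6b2 fell by 0.63 on the log2 scale, with the same SE, and did not pass (0.0792).

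The upstream sequences of the genes were searched for 3 short motifs known from promoters of nuclear genes for mitochondrial proteins. Windows of 300 bases, 250 before and 50 after the annotated start (RefSeq, GRCr8), were at hand for 67 of the 75 genes and for 18999 protein-coding genes in all. The motif of YY1, searched as AAGATGGC on both strands, stood in 14 of the 67 windows (20.9%) and in 3.92% of all windows. That of NRF1, nuclear respiratory factor 1, searched as GCATGCGC, stood in 7 (10.4%) and in 3.22% of all, and that of GABP, also called NRF-2, searched as CCGGAAGT, in 7 (10.4%) and in 4.99%. Any of the 3 stood in 25 windows (37.3%) and in 11.3% of all.

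The matches to AAGATGGC lay mostly at the start of the transcript. In 13 of the 14 genes it began within 50 bases of the annotated start, as it did in 66.6% of all genes with a match, and in 13 it ran with the gene, against 69.3%. These letters contain ATG, the letters of a start codon, and the matches were not set against the coding sequence. The following stretches of 30 bases come from the genes that had such a match and passed as lower at 1 or more times, written along the gene with the match in capitals.
Atp5mf (chr12:14535455-14535484, plus strand): cggacaacaggacttcAAGATGGCgtctat
Atp5pf (chr11:37375194-37375223, minus strand): taagtgtaggaAAGATGGCggagtcttagc
Ndufa3 (chr1:74515524-74515553, minus strand): tgtccaagaccAAGATGGCtgctagtaagt
Ndufaf8 (chr10:105879899-105879928, plus strand): aggcagggcccAAGATGGCggcgcccacaa
Ndufb8 (chr1:253362897-253362926, minus strand): cggagaaggtgAAGATGGCggcgtcccggg
Ndufs4 (chr2:47794892-47794921, minus strand): ttgcccacaggAAGATGGCggcggtctcaa
Ndufs7 (chr7:10110476-10110505, minus strand): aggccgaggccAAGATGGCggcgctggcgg
Uqcrc1 (chr8:118468211-118468240, plus strand): acggaagttagAAGATGGCggcgtccgcag

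The genes that passed as lower and held the NRF1 motif were Ndufaf5 and Uqcrc1, the latter with its match on the other strand (GCGCATGC), and Uqcrq was the one with the GABP motif. Their stretches are shown in the same way.
Ndufaf5, NRF1 (chr3:147961588-147961617, plus strand): gtccctttggcGCATGCGCacaatagaaaa
Uqcrc1, NRF1 (chr8:118468173-118468202, plus strand): tactccaccctGCGCATGCgtagcgcggct
Uqcrq, GABP (chr10:38089982-38090011, minus strand): ttccgctcctcCCGGAAGTgacgtgcaaag

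Medians were also taken over genes with a motif and genes without one, as a description. At D3 the median log2 fold change was -0.25 over the 14 genes with the YY1 motif and -0.24 over the 53 without, -0.17 over the 7 with the NRF1 motif and -0.24 over the 60 without, and -0.24 on either side for GABP. For NRF1 the medians were -0.14 with and -0.27 without at D7 and -0.19 and -0.23 in Chronic, for GABP they were -0.21 and -0.27 and then -0.21 and -0.23, and for YY1 -0.31 and -0.26 and then -0.25 and -0.23. The window of Cox6b2 held none of the 3 motifs, and Ndufaf6 had no window. A match is a string of letters and not a shown binding site.

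The mRNA of the factors themselves was measured too, and these genes were chosen after their values were seen. Gabpa, the DNA-binding part of GABP, was higher at D3 (0.45 ± 0.11, adjusted p = 0.0054) and D7 (0.36 ± 0.11, 0.0259) and stood at 0.31 in Chronic (0.0607). After quantile normalisation it was higher at all 3 times (0.47, 0.43 and 0.37). Its partner Gabpb1 stood at -0.13, 0.00 and -0.02, each ± 0.11. Yy1 stood at 0.11, -0.01 and -0.05, each ± 0.13. Nrf1 was dim and stood at 0.03, 0.74 and -0.24, each ± 0.42, without a pass. Tfam, which packages mitochondrial DNA and takes part in its transcription, stood at -0.06, -0.21 and -0.14, each ± 0.12, without a pass. Ppargc1a, a coactivator that drives mitochondrial biogenesis, was lower at D3 (-0.41 ± 0.14, adjusted p = 0.0433) and in Chronic (-0.47 ± 0.14, 0.0312) but did not pass after quantile normalisation (-0.33 at both).

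The counts of neighbouring pathways stand beside 14.3%, 11.9% and 9.83% of all features that were lower, and 41.2%, 34.4% and 30.9% of the bright ones. Of all features 7.91%, 6.2% and 4.86% were higher. After quantile normalisation 8.62%, 4.58% and 3.71% of all features were lower and 8.53%, 5.55% and 4.33% higher. Of 31 further genes of the respiratory chain (cytochrome c1, cytochrome c and its heme attachment, and assembly of complexes I, III, IV and ATP synthase), 9, 7 and 6 were lower and 1, 0 and 0 higher, with medians of -0.19, -0.23 and -0.19. After quantile normalisation 2, 2 and 0 were lower and 1, 1 and 0 higher, with medians of -0.03, -0.04 and -0.04. Among them Cyc1, the cytochrome c1 subunit of complex III, has a symbol outside the prefixes. It was lower at D3 (-0.36 ± 0.10, adjusted p = 0.0176) and stood at -0.23 at D7 and -0.27 in Chronic. After quantile normalisation it stood at -0.11, 0.00 and -0.04. Of 14 genes of the citric acid cycle and pyruvate dehydrogenase, 6, 6 and 7 were lower and none higher, with medians of -0.31, -0.29 and -0.35. After quantile normalisation 1, 0 and 0 of these were lower and none higher, with medians of -0.13, -0.09 and -0.13. Of 16 genes of glycolysis, 11, 8 and 10 were lower and 1 higher at each time, with medians of -0.48, -0.38 and -0.41. After quantile normalisation 2, 1 and 1 of these were lower and 2, 1 and 1 higher, with medians of -0.17, -0.10 and -0.14. The glycolytic gene that rose on the authors' scale was Hk2, an inducible hexokinase, at 1.51, 1.80 and 1.81. Mitochondrial carriers, channels and import (17 genes) had medians of -0.20, -0.25 and -0.21, with 4, 5 and 2 lower and 1, 0 and 0 higher. After quantile normalisation 1, 2 and 0 were lower and 1, 0 and 0 higher, with medians of 0.02, -0.04 and 0.01. Genes of mitochondrial biogenesis (14) had medians of -0.13, -0.15 and -0.21, with 3, 1 and 3 lower and 1, 1 and 0 higher. After quantile normalisation 1 was lower and 1 higher at each time, with medians of -0.07, -0.03 and -0.14. Of 6 genes of uncoupling and antioxidant defence none was lower and 1, 1 and 0 were higher.

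Markers of neurons lay lower and markers of microglia higher after pilocarpine. Of 10 markers of excitatory neurons 8, 5 and 4 were lower, with medians of -0.83, -0.56 and -0.54. After quantile normalisation 8, 1 and 3 were lower, with medians of -0.68, -0.41 and -0.51. Of 9 interneuron markers 5, 4 and 4 were lower, with medians of -0.42, -0.47 and -0.59, and 1 was higher at D3, Npy (1.40, adjusted p = 0.0421). After quantile normalisation 3, 1 and 2 interneuron markers were lower, with medians of -0.17, -0.23 and -0.39. All 10 markers of microglia and macrophages were higher at D3 and D7 and 9 in Chronic, with medians of 1.95, 2.03 and 1.65. After quantile normalisation 10, 9 and 9 of them were higher. Of 8 astrocyte markers 5, 3 and 2 were higher, with medians of 0.43, 0.36 and 0.15, while S100b was lower at D3 (-0.65, adjusted p = 0.000515). After quantile normalisation 5, 5 and 3 astrocyte markers were higher, with medians of 0.72, 0.49 and 0.32. Oligodendrocyte markers gave no call on the authors' scale, with medians of 0.12, 0.31 and 0.20 over 7 genes, but after quantile normalisation 3, 2 and 2 were higher, with medians of 0.44, 0.53 and 0.45. Choroid plexus markers were uneven, with single genes from -3.33 to 0.79 at D3 and from 0.13 to 1.73 in Chronic, and 1 was lower, at D7. Of 5 endothelial markers 1 was lower at each time and none higher, with medians of 0.04, 0.02 and -0.11. The 1 marker of red blood cells measured, Alas2, was lower at D3 and D7 (-1.70 and -2.44) and stood at -0.47 in Chronic, but after quantile normalisation it passed at D7 alone. The part of these shifts in the levels of the 75 genes was not tested.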

How the data were processed

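Total RNA of rat hippocampus was hybridised to 18 CodeLink Rat Whole Genome arrays (D3, D7 and Chronic, 5 each, and Control, 3). The authors extracted intensities with CodeLink Expression Analysis, which subtracts the local background, and deposited raw intensity and a normalised intensity for each spot. In the deposited files the normalised intensity is the raw intensity divided by 1 constant per array. Spots flagged good or low were kept, and the 0.699% of gene spots with another flag were set missing. Values under the percentile 1 of an array's positive values were raised to it, and log2 was taken. Probes were named by the platform annotation or, failing that, by RefSeq accession: 16737 and 205 gene probes, with 165 naming several genes and 16742 none. The 75 genes had 84 probes, and 6 further probes named such a gene together with another and were left out of the counts. Control probes of 6 rat genes (32, with 4 spots each) joined 33800 gene probes. A gene with several probes was read from the probe with the highest mean log2 value.

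A model of 4 groups was fitted to all 33832 features with limma 3.58.1 in R 4.3.3 (lmFit, eBayes with an intensity trend), with Benjamini-Hochberg adjustment over all features for each comparison. A gene passed at an adjusted p under 0.05, and the study's 2-fold limit was applied only where stated. The number of arrays, above all 3 Control arrays, limits the precision. The fit was also run on simulated arrays with known changes at single features. These held no difference in scale between arrays, so they cannot show how such a difference acts on the calls.

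The genes, the lists of pathways and markers, the tests and the alternatives were chosen with earlier results of these data known. Genes were named where they passed with at least 2-fold, had the lowest or highest mean change of a complex or 1 of the 3 smallest p-values of a direction at a time, or belonged to preset lists of core subunits and isoforms. Alternatives were quantile normalisation, scaling at percentile 75, good spots only, a filter on dim probes, no intensity trend, the methods' t-test, time-matched control arrays, all probes of a gene and each array left out. Adding up calls on both scales and setting bright features apart were chosen after seeing the data.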

Additional observations from a re-analysis of the deposited data

Results flagged for a closer look

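Dixon's test for a value apart from the rest, run on the 90 groups of 5 or 4 arrays of the 30 named genes, marked 6 values, where about 1 in 20 groups (4.5) is marked by chance. In D3, Atp5f1a stood at 4.573 (log2) on replicate 15 against 4.78 to 4.86 on the others, and Ndufs7 at 4.628 on the same array against 4.78 to 4.83. Cox4i1 stood at 5.174 on D3 replicate 11 against 5.43 to 5.46 on the 3 others with a usable spot, and Sdha at 2.862 on D3 replicate 13 against 2.93 to 2.95. In D7, Atp5po stood at 4.253 on replicate 31 against 4.83 to 5.01, and Sdhb at 5.162 on replicate 33 against 4.93 to 4.99. These values fell on 5 arrays.

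Cox6b2 was the gene whose change against Control differed between 2 pilocarpine groups by the test of the difference itself, with -0.6233 between Chronic and D3 (log2, limma adjusted p = 0.0473, n = 5 and 5). All 5 D3 arrays lay above all 5 Chronic arrays.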

How the results depend on the processing

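The counts of lower genes depended on the scaling, while the rise of Cox6b2 at D3 kept its direction and its call under every alternative. For D3, D7 and Chronic against Control, in that order, 20, 27 and 18 genes were lower on the authors' scale. Quantile normalisation left 1, 0 and 1 and moved the medians of the 75 genes to -0.011, -0.058 and -0.001. Scaling at percentile 75 left 12, 6 and 5, with medians of -0.195, -0.174 and -0.131. It also moved the median over all features at D7 from -0.06 to 0.05 (log2). Without the intensity trend they were 16, 20 and 9. The methods' t-test gave 42, 41 and 29 unadjusted and 30, 2 and 3 after adjustment, with 1, 0 and 1 higher in both cases. Against the time-matched control array alone 0, 1 and 0 were lower and 1, 0 and 0 higher, with a median of -0.167 in Chronic. Good spots only gave 27, 33 and 23, the filter on dim probes 27, 34 and 23, and counting all probes changed no count. With each array left out, the lower genes ranged from 8 to 24, 5 to 31 and 3 to 21, the higher genes from 1 to 1, 0 to 1 and 0 to 1, and the medians from -0.298 to -0.208, -0.325 to -0.253 and -0.31 to -0.214. Between pilocarpine groups, the 1 gene lower in Chronic than at D3 was 0 under quantile normalisation, percentile 75 scaling and no trend, and 0 to 1 with each array left out, as was the number lower at D7 than at D3. For Chronic against D3 the t-test gave 1 higher after adjustment, and 4 lower and 2 higher unadjusted, where it also gave 7 lower for D7 against D3, and 1 lower and 2 higher for Chronic against D7. The medians of the 5 complexes ranged from -0.38 to -0.099 on the authors' scale, from -0.109 to 0.144 after quantile normalisation and from -0.457 to -0.068 with each array left out. Of 38 calls of named genes none reversed. With the 3 Control arrays pooled, quantile normalisation lost 33 of them, the methods' t-test lost 20 and scaling at percentile 75 lost 17. Leaving out the intensity trend lost 8. Calls against the time-matched control array alone are not in this list, since each rests on 1 Control array. The causes were not tested. Normexp and a slide or scan date block were not run, since the files used here hold neither a background column nor such dates. No paired analysis was possible because no number in the labels occurs in more than 1 group. The 3 Control arrays limit the precision, and probes near background more so.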

Other observations

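There were 6 probes that named a gene of the pathway together with another gene, and they were left out of the counts above. On the authors' scale the probe of Cox5b and Smpd5 was lower at all 3 times, at -0.45, -0.40 and -0.42 (log2, limma adjusted p = 0.0102, 0.0245 and 0.0221). The probe of Cox4i2 and Cdc42bpb was lower at D7 (-0.34, adjusted p = 0.0335). The 2 probes of Ndufa10 and Ndufa10l1 were lower at D7 (-0.41, adjusted p = 0.02) or in Chronic (-0.43, 0.017), 1 probe each. None of the 6 passed after quantile normalisation, and those of Ndufs6 and its pseudogene and of Atp5me and Luc7l2 passed on neither scale.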
